A study of Mus musculus with 4 samples.

Results

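Myosin light chain genes and the genes of 2 kinases of the light chains were followed in differentiating C2C12 cells, an immortalised mouse myoblast line, with and without depletion of the histone demethylase LSD1. The set holds 10 genes (Myl1, Myl2, Myl3, Myl4, Myl6, Myl6b, Myl9, Mylpf, Mylk2 and Mylk4), chosen by symbol. All array probe sets that carry exactly 1 of these symbols were taken, which gave 13 probe sets of 34945 with a single symbol, for 10 of 18193 genes. A further 2 probe sets that list Myl6 together with other gene models were left out.

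The control group, shControl (2 arrays), carried a plasmid with a non-targeting short hairpin RNA, and the depleted group, shLSD1 (2 arrays), one with a hairpin against LSD1. Cells of both groups were stable transfectants under hygromycin B at 750 µg/mL, with glucose given as 25 mM. They had been moved from 10% fetal bovine serum to 2% horse serum, and were harvested 48 hours after differentiation was induced. The labels do not say whether the 2 arrays of a group were grown as separate cultures, and the p-values therefore cover only array-to-array spread, which could be technical. The labels give 1 plasmid product for the LSD1 hairpin and do not mention clones, so a difference of hairpin and one of stable selection cannot be told apart.

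Each myosin motor is built on a pair of heavy chains, and each heavy chain neck binds 1 essential and 1 regulatory light chain. Skeletal muscle uses separate fast, slow and embryonic light chain genes, while smooth muscle and non-muscle cells use others. Calcium-calmodulin-dependent light chain kinases phosphorylate the regulatory chain, which in skeletal muscle tunes force and in smooth muscle starts contraction.

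Values are MAS5 signals, a brightness per probe set on a linear scale, and a log2 fold change is the mean log2 signal in shLSD1 minus that in shControl. Kdm1a, which encodes LSD1, had signals of 1842 and 1912 in the shControl arrays and 301 and 367 in the shLSD1 arrays. Both depleted arrays were far lower, at 17.7% of control (log2 fold change -2.50, SE 0.11, limma adjusted p = 4.53e-05). All 12 skeletal muscle markers examined lay above the filter on dim genes, at a signal of 65.4, and 9 of them fell (8 with either shControl array left out). Of 7 undifferentiated myoblast markers tested, 1 fell and 2 rose, and 1 rose and 0 fell with either shControl array left out. Of 3 tested epithelial markers 2 rose (1 without shControl replicate 2), with a summed signal of all 5 measured of 195 and 204 in shControl and 444 and 414 in shLSD1. The 2 that rose, Cdh1 and Ocln, lay under the filter on both shControl arrays (60.1 and 51.9, and 34.1 and 35.4). They were tested only through their shLSD1 signals (153 and 139, and 173 and 130). The part of these other cell types' markers in the results on light chains was not tested. Of 4 adipocyte, 4 endothelial and 5 leukocyte markers measured, 0 lay above the filter. The median signal of an array was 67.3 to 69.7, the 3' to 5' signal ratio of the Gapdh controls 0.755 to 0.783 and that of the Actb controls 1.16 to 1.19. Precision is limited by having 2 arrays per group.

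Light chain and kinase genes moved in both directions in the depleted cells. The essential chain gene Myl4, the regulatory chain gene Mylpf and the kinase gene Mylk4 fell, the regulatory chain genes Myl2 and Myl9 rose, and Myl1, Myl6 and Mylk2 did not pass the test. Myl3 and Myl6b lay below the filter and were not tested. The count of 3 lower members stands beside a background of 6.82% of 10793 tested genes called lower, and that of 2 higher members beside 8.47% called higher (limma, Benjamini-Hochberg adjusted p under 0.05). The 8 tested members had a median log2 fold change of -0.03, against 0.00 over all tested genes. In the 3 lower and 2 higher members the groups did not overlap, which was also so for 59.6% of all tested genes, 29.2% lower and 30.5% higher. The groups of Mylk2 did not overlap either, but it entered the test only through its shLSD1 signals. In these bulk samples fewer cells of a type and less RNA per cell cannot be told apart. Without shControl replicate 1 there were 2 lower members and 1 higher, and without shControl replicate 2 there were 2 lower and 2 higher, while the calls over all tested genes went from 1650 to 521 and 506.

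**Figure D1:**
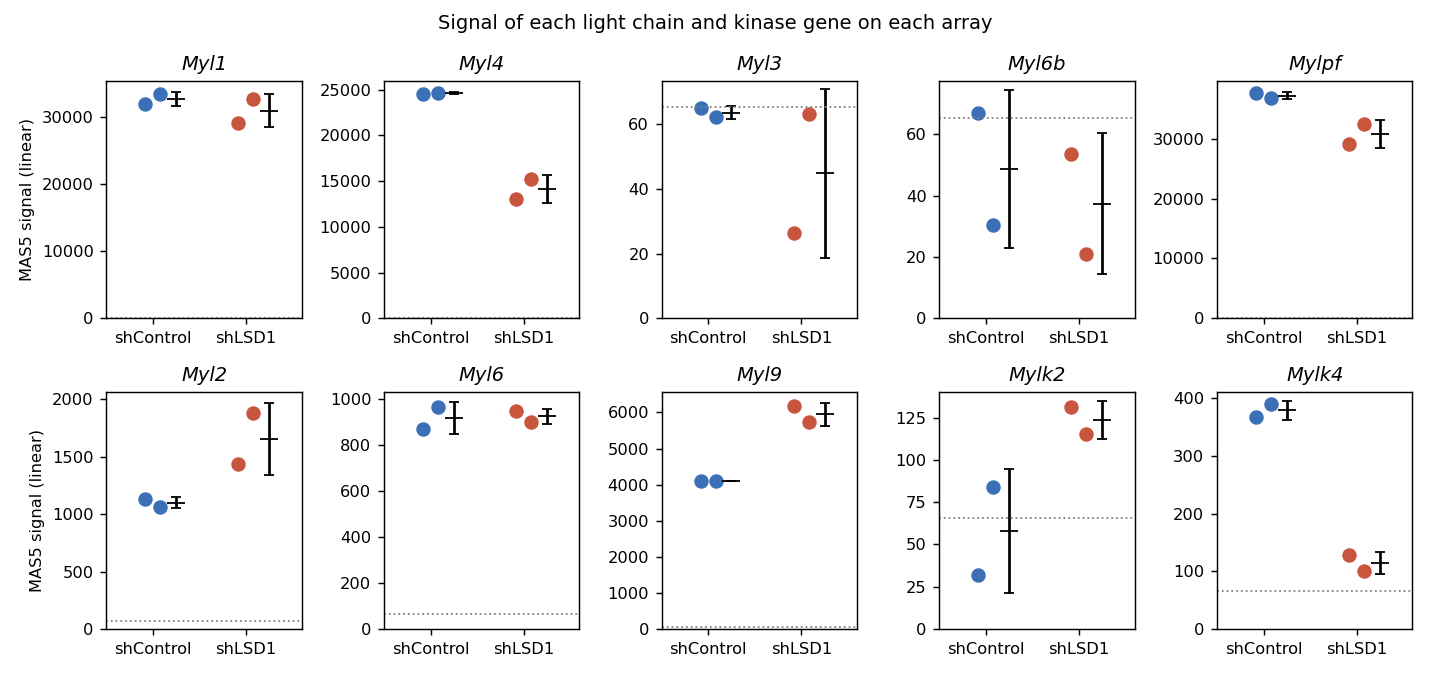
MAS5 signal (linear axis from 0, scaled for each gene) of the representative probe set of each gene on the 2 shControl and 2 shLSD1 arrays, with the mean and SD of each group as black bars and the filter signal of 65.4 as a dotted line. Myl4 and Mylk4 lie lower on both shLSD1 arrays and Myl9 and Myl2 higher, and the points of Myl1, Myl3, Myl6 and Myl6b overlap between the groups.

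The promoters of the 5 members past the test are shown so that the motifs they hold can be read beside the changes, with both windows of Myl2. RefSeq windows of GRCm38.p6, from 250 bases before to 50 after a transcript start, were held for 9 of the 10 members in 11 windows, and Mylk2 had none. Each line gives the gene, its window and its sequence from 5′ to 3′ in the direction of the gene. Capitals mark every match to the E-box CANNTG, which is bound by the MyoD family, to the CArG box, which is bound by serum response factor, to a CArG box with 1 G or C allowed in its core, to the MCAT box CATTCC, which is bound by TEAD factors, or to the MEF2 consensus.
Myl2, chr5:122092474-122092773, plus strand: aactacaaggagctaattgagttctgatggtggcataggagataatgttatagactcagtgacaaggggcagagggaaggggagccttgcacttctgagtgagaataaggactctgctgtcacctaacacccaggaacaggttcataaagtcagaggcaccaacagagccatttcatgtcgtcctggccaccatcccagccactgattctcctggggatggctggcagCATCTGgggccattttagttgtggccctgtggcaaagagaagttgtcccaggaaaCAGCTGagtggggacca
Myl2, chr5:122092939-122093238, plus strand: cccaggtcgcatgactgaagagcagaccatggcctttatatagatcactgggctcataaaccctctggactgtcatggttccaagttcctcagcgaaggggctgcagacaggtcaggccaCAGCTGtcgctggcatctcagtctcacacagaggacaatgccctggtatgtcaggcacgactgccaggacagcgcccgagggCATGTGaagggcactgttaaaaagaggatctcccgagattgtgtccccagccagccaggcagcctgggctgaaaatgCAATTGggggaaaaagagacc
Myl9, chr2:156775214-156775513, plus strand: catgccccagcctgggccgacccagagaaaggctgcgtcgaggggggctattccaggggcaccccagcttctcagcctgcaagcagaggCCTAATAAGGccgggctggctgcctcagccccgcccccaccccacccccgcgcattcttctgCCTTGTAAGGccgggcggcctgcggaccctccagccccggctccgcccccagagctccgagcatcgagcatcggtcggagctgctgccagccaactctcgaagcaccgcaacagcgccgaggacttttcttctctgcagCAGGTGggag
Myl4, chr11:104550413-104550712, plus strand: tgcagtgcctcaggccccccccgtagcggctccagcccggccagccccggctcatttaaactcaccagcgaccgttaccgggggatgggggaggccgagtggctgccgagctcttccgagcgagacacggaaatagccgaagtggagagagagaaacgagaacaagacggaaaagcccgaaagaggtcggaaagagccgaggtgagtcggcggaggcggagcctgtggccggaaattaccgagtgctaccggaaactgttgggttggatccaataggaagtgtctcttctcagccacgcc
Mylpf, chr7:127211358-127211657, plus strand: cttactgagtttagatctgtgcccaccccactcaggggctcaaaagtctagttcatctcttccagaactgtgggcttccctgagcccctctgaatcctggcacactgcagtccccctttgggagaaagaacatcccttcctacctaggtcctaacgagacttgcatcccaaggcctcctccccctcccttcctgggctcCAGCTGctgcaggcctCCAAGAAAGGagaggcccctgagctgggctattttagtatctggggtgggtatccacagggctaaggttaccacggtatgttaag
Mylk4, chr13:32783915-32784214, minus strand: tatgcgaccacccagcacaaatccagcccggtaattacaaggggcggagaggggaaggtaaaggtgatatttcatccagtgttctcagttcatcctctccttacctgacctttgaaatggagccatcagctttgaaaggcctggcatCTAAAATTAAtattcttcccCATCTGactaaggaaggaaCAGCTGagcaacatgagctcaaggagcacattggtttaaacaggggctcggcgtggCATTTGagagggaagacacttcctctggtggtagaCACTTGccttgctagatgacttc
Both strands were searched, and every strict CArG match is also a match of the relaxed form, as each CAGCTG is of CANNTG.

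The Myl9 window held the strict CArG box CCTAATAAGG at positions -161 to -152, counted from the start base as 0, and the relaxed form CCTTGTAAGG at -99 to -90. A strict CArG box was present in 1.63% of all 32851 windows and the relaxed form in 9.98%. Strict matches also lay in a window of Myl6 and in that of Myl3. The Mylk4 window held 4 E-boxes, of which 1 was CAGCTG at -64 to -59, and a MEF2 match at -103 to -94, a consensus found in 3.19% of windows. The Mylpf window held CAGCTG at -51 to -46 and a relaxed CArG match at -35 to -26. The Myl2 windows, of a member that rose, held 2 and 3 E-boxes, of which 1 each was CAGCTG, at 33 to 38 and at -130 to -125, and no match of the other motifs. CAGCTG thus lay in windows of members that fell and of 1 that rose. The Myl4 window held no match of any motif searched. Whether a RefSeq window covers the start used in these cells was not tested. A window without a match therefore does not show that the promoter in use lacks the motif. An E-box CANNTG was in 9 of the 11 member windows, against 72.3% of all windows, and CAGCTG in 5 of the 11, against 16.3%. The MCAT box, at 14.7% of all windows, was in those of Myl1 and Myl3. A match is a description of letters and not a bound site.

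Of the essential light chain genes of skeletal muscle, Myl4 fell and Myl1 did not pass the test. Myl4 encodes the essential chain of the embryonic muscle and of the adult atrium. Its signals (probe set 1422580_at) were 24539 and 24683 in the shControl arrays and 13085 and 15235 in the shLSD1 arrays. Both depleted arrays lay far below both controls, which differed from each other by little. The group means were 24611 ± 102 and 14160 ± 1521 (SD, n = 2 each). Myl4 fell by 0.80 on the log2 scale (SE 0.07, 95% interval -0.96 to -0.64, limma adjusted p = 0.000579), to 57.4% of control, and 188 of the 10793 tested genes, or 1.74%, had a lower value. A dimmer Myl4 probe set (1457126_at) read 133 and 191 in shControl and 84.2 and 101 in shLSD1. Its groups did not overlap either, and its log2 fold change was -0.79 (SE 0.25, limma adjusted p = 0.0820 over 19958 probe sets, of which 5.38% were called lower), so it did not pass the test.

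Myl1 encodes the essential chains of adult fast fibres. Its signals (1452651_a_at) were 31893 and 33337 in shControl and 29132 and 32623 in shLSD1. The groups overlapped, since the second depleted array lay above the first control. The log2 fold change was -0.08 (SE 0.06, 95% interval -0.21 to 0.05, limma adjusted p = 0.389). Without shLSD1 replicate 2 it was -0.16 and passed the test, and without shLSD1 replicate 1 it was 0.00070. These signals, like those of Mylpf, lie near the top of the scale, since the highest signal of an array was 44842 to 49493, and whether the probes still respond in proportion there was not tested.

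Myl3, for the essential chain of slow fibres and the ventricle, was dim on all 4 arrays. The probe set chosen for it (1428266_at) read 65.0 and 62.1 in shControl and 26.4 and 63.1 in shLSD1. Only the first depleted array was low, and the groups overlapped. Its other probe sets, of types prone to cross-hybridisation, read 31.3 and 25.7 against 4.87 and 15.0 (1427768_s_at), and 29.9 and 9.37 against 2.76 and 4.14 (1427769_x_at). Those of shLSD1 were lower in both, at signals where MAS5 values are noisy, and all 3 probe sets lay below the filter. Myl6b, for an essential chain of slow skeletal and non-muscle myosin, read 66.8 and 30.5 in shControl and 53.5 and 21.1 in shLSD1 (1430661_at). The groups overlapped, and within each the arrays differed by more than the group means did.

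The regulatory chain genes Mylpf, of fast muscle, and Myl2, of slow muscle, went opposite ways. Slow muscle genes did not rise as a set, since the slow and cardiac heavy chain gene Myh7 fell (-1.55, SE 0.08, limma adjusted p = 6.56e-05). Mylpf encodes the phosphorylatable chain of fast fibres. Its signals (1448371_at) were 37631 and 36803 in shControl and 29163 and 32444 in shLSD1, so both depleted arrays were lower. It fell by 0.27 on the log2 scale (SE 0.05, 95% interval -0.40 to -0.15, limma adjusted p = 0.0137), to 82.7% of control, and 11.7% of tested genes had a lower value. Leaving out shControl replicate 1 (-0.26) or shControl replicate 2 (-0.29) ended the call.

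Myl2 encodes the regulatory chain of slow fibres and of the ventricle. Its signals (1448394_at) were 1134 and 1065 in shControl and 1434 and 1879 in shLSD1. Both depleted arrays were above both controls, and they differed from each other by more than the controls did. The means were 1099 ± 48.4 and 1656 ± 314 (SD, n = 2 each). Myl2 rose 1.49-fold, a log2 fold change of 0.58 (SE 0.12, 95% interval 0.29 to 0.86, limma adjusted p = 0.0184), and 518 tested genes, or 4.80%, had a higher value. The call was not made without shControl replicate 1 (0.62) or shControl replicate 2 (0.53). Without shLSD1 replicate 2 the log2 fold change was 0.38, a call that was kept. Of 5 cardiac markers tested, 1 fell and 0 rose. The one that fell, Tnnt2, for cardiac troponin T, measured -0.22 (SE 0.05, limma adjusted p = 0.0308) and no longer passed without shControl replicate 1 (-0.23) or shControl replicate 2 (-0.21). Without shLSD1 replicate 1 it was -0.15. The 2 other Tnnt2 probe sets above the filter gave -0.23 and 0.05, of which 1 passed. The summed signal of 11 cardiac markers measured was 26100 and 26470 in shControl and 21525 and 23848 in shLSD1. It was mostly that of Tnnt2, at 25363 and 25754 against 20888 and 23111. Of the 11 markers, 6 lay below the filter, so the sum describes Tnnt2 and not cardiac markers as a group. Tnni3, for cardiac troponin I, named after its values were seen, read 37.6 and 66.8 against 84.9 and 109. It was higher in both shLSD1 arrays and did not pass the test (0.94, SE 0.36, limma adjusted p = 0.130). The mean log2 signal of its controls was under the filter, so Tnni3 was tested only through its shLSD1 signals. Myl7, the atrial regulatory chain gene, read 6.64 and 11.3 against 3.57 and 16.1, all below the filter.

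**Figure D2:**
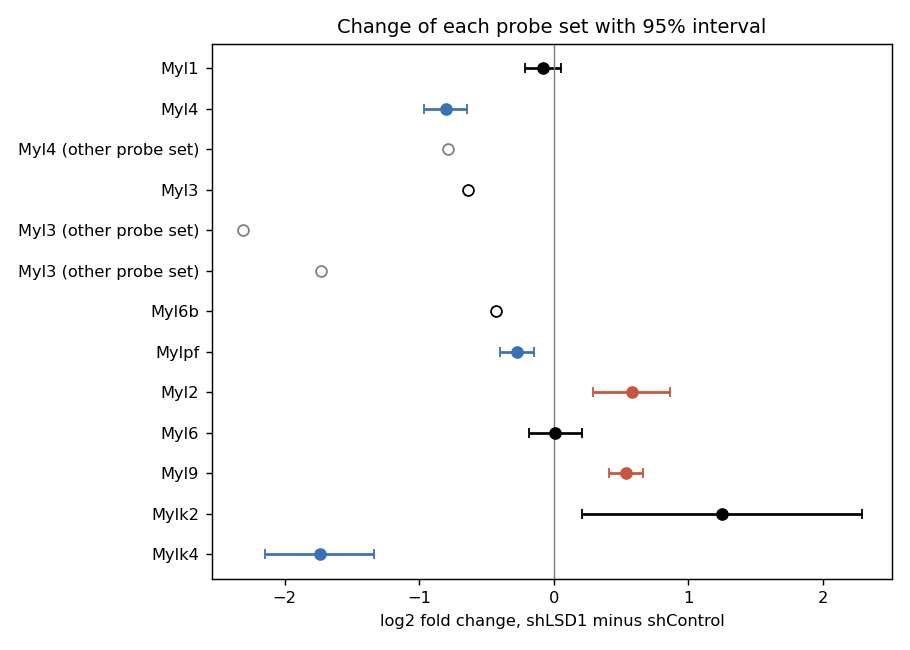
Log2 fold change (shLSD1 minus shControl) of each of the 13 probe sets; bars are 95% intervals from limma for the tested genes, blue fell, orange rose, black did not pass the test, and open circles had no gene test (other probe sets, or genes below the filter). Mylk4 lies at -1.74 and Myl4 at -0.80, with its second probe set at -0.79, while the interval of Mylk2 reaches from 0.21 to 2.29.

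Of the smooth muscle and non-muscle chain genes, Myl9 rose and Myl6 did not pass the test. Myl9 encodes the regulatory chain of smooth muscle myosin. Its signals (1452670_at) were 4098 and 4111 in shControl and 6172 and 5729 in shLSD1, with both depleted arrays well above the nearly equal controls. The means were 4104 ± 8.67 and 5951 ± 313 (SD, n = 2 each). Myl9 rose 1.45-fold, a log2 fold change of 0.53 (SE 0.05, 95% interval 0.41 to 0.66, limma adjusted p = 0.00101), and 5.60% of tested genes had a higher value. Myl6 encodes the essential chain of smooth muscle and non-muscle myosin, and its signals (1435041_at) were 870 and 966 in shControl and 948 and 902 in shLSD1. The groups overlapped, and the log2 fold change was 0.01 (95% interval -0.19 to 0.21, limma adjusted p = 0.942).

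Smooth muscle markers were set beside Myl9. Of 9 such markers 5 were tested, and 2 fell while 0 rose, with a median log2 fold change of -0.55. The summed signal of the 9 was 13476 and 13221 in shControl and 7895 and 11325 in shLSD1. Its largest parts were Tagln (5894 and 5870 against 2464 and 4714) and Synpo2 (3394 and 3333 against 1954 and 2693). Tagln did not pass the test (-0.79, SE 0.25, limma adjusted p = 0.0732). Acta2, the smooth muscle actin gene, fell by 0.85 (SE 0.12, limma adjusted p = 0.00381). Its 2 other probe sets above the filter gave -0.51 and -0.20, of which 1 passed, and the mean of its probe sets gave -0.52. Another marker that fell was Synpo2, for an actin-binding protein of the Z-disc (-0.55, SE 0.13, limma adjusted p = 0.0286). A protein of the Z-disc is not particular to smooth muscle, so the fall of Synpo2 cannot be read as one of smooth muscle genes. Synpo2 no longer passed without shControl replicate 1 (-0.54) or shControl replicate 2 (-0.57), which left 1 lower marker each time. Without shLSD1 replicate 1 its value was -0.32 and 3 markers were lower, and without shLSD1 replicate 2 there were 4. Myh11, for the smooth muscle heavy chain, read 5.56 and 5.73 in shControl and 12.5 and 7.83 in shLSD1, all below the filter. Cnn1, for calponin, named after its values were seen, read 13.7 and 12.8 against 80.6 and 167. Both shLSD1 signals were above 65.4, but its mean over the 4 arrays was not, so it was not tested. With no filter Cnn1 passed as higher, and the markers then had 1 lower and 1 higher.

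Of the kinase genes, Mylk4 fell and Mylk2 did not pass the test. Mylk4 encodes a member of the light chain kinase family. Its signals (1441111_at) were 368 and 390 in shControl and 128 and 101 in shLSD1, so that both depleted arrays were far below both controls. The means were 379 ± 15.9 and 114 ± 18.8 (SD, n = 2 each). Mylk4 fell by 1.74 on the log2 scale (SE 0.17, 95% interval -2.14 to -1.33, limma adjusted p = 0.00101), to 30.0% of control. Only 11 of the 10793 tested genes, or 0.102%, had a lower value.

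Mylk2 encodes the kinase of skeletal muscle myosin. Its signals (1427556_at) were 32.1 and 84.0 in shControl and 131 and 115 in shLSD1. The depleted arrays were above both controls, which differed from each other more than the second control differed from the depleted arrays. The mean log2 signal of the controls, 5.70, was under the filter of 6.03, so the gene was tested because of its shLSD1 signals. The log2 fold change was 1.25 (SE 0.45, 95% interval 0.21 to 2.29), and Mylk2 did not pass the test (limma adjusted p = 0.104). Without shControl replicate 2 it was 1.94 and passed, and without shControl replicate 1 it was 0.55.

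**Figure D3:**
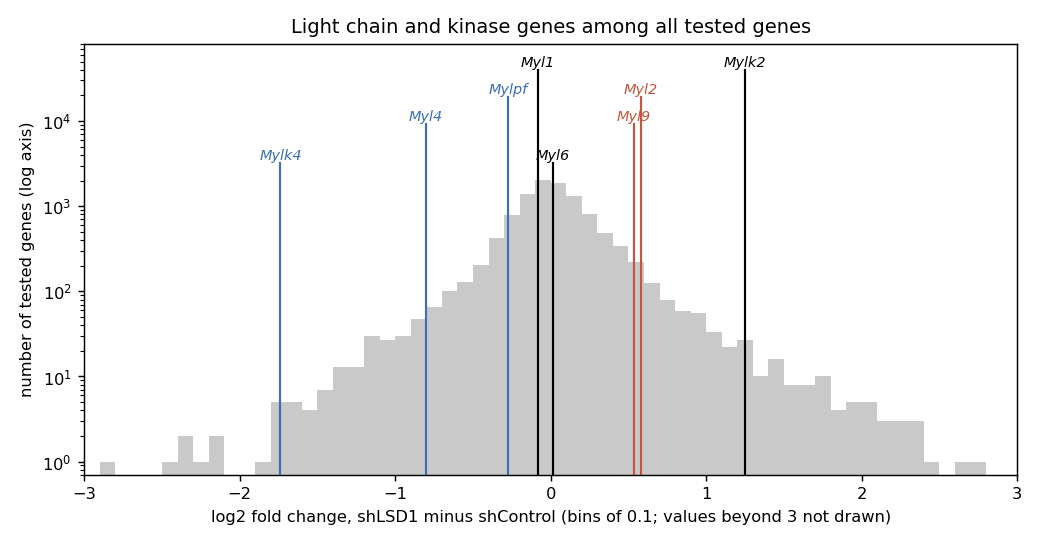
Histogram of the log2 fold changes of 10793 tested genes in bins of 0.1 (log axis for the number of genes), with a vertical line at each tested member; blue fell, orange rose and black did not pass the test. Mylk4 lies in the lower tail, with 11 genes below it, and Myl1 and Myl6 lie in the middle.

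Related genes were also set against each other within each array, as the log2 signal of 1 minus that of the other, where the change and not the level is of interest. In 4 such pairs, 2 against 2 arrays cannot give an exact two-sided permutation p under 0.333, so none could pass. Relative to Mylpf, Myl2 was 0.85 higher in shLSD1 (exact permutation p = 0.333, adjusted p = 0.444 over the 4 pairs), without overlap between groups. Myl4 relative to Myl1 differed by -0.72 (exact permutation p = 0.333, adjusted p = 0.444), also without overlap. The value for Mylk2 relative to Mylk4 was 2.98 (exact permutation p = 0.333, adjusted p = 0.444). It ranged from 2.33 to 3.64 with a control array left out and carries the same limit as Mylk2, which was tested only through its shLSD1 signals. For Myl6b relative to Myl6 the difference of -0.44 lay within the spread of the arrays (exact permutation p = 0.667, adjusted p = 0.667). Its sign turned without shControl replicate 1 (0.20) and without shLSD1 replicate 2 (0.20).

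**Figure D4:**
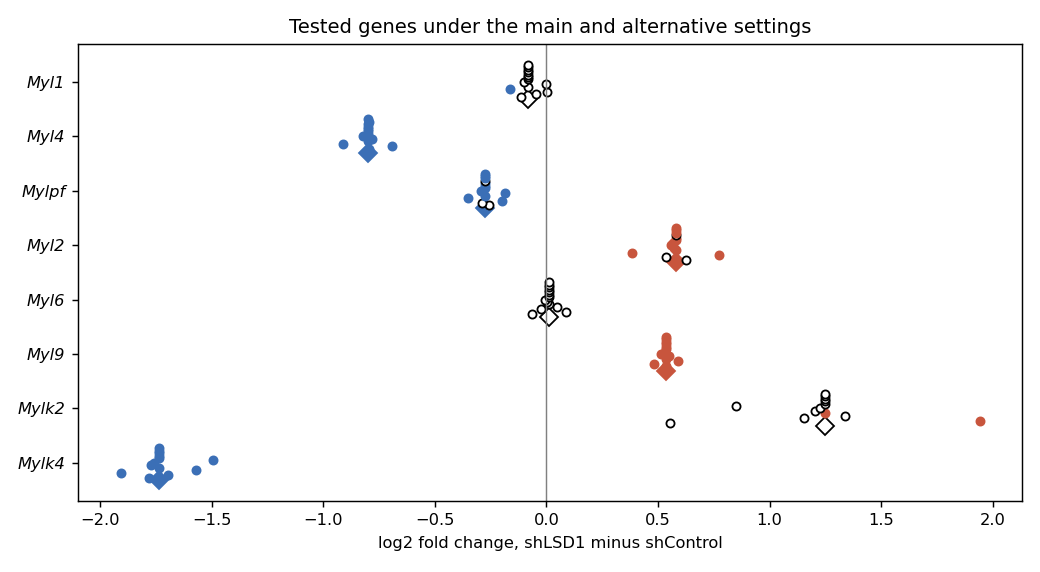
Log2 fold change (shLSD1 minus shControl) of each tested member under the reported setting (diamond) and each alternative (circles); coloured symbols passed the test (blue lower, orange higher) and open symbols did not. Myl4, Myl9 and Mylk4 passed in every setting in which they were tested, and Myl2 and Mylpf in all but 3.

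The other light chain and kinase genes were mixed as well. Of 6 measured, 3 were tested, 1 rose and 1 fell. Myl12b, for a regulatory chain of non-muscle myosin, read 8864 and 8733 in shControl and 11109 and 12607 in shLSD1, a rise of 0.43 (SE 0.06, limma adjusted p = 0.00437). Its near copy Myl12a measured -0.02 (95% interval -0.13 to 0.08, limma adjusted p = 0.761), with the limit that transcripts this close in sequence may share probes. Another Myl12b probe set gave 0.89 and did not pass. Mylk, for the kinase of smooth muscle and non-muscle cells, read 238 and 252 against 172 and 139. It fell by 0.67 (SE 0.17, limma adjusted p = 0.0406), and another Mylk probe set gave -1.39. Without shControl replicate 1 the values were 0.44 for Myl12b and -0.71 for Mylk, and without shControl replicate 2 they were 0.42 and -0.63, and 0 of the list passed in either case. Without shLSD1 replicate 2 the value of Mylk was -0.52 and its call was lost.

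Genes of the light chain phosphatase and of the kinases upstream of it showed no call in the limma fit. Of 22 genes written in the list, 17 were measured and 15 tested, and 0 passed, with 5 at an unadjusted p under 0.05. Their median log2 fold change was 0.00, as over all tested genes. The largest differences were -0.36 for Ppp1r12b, a myosin-binding subunit gene of the phosphatase (SE 0.15, limma adjusted p = 0.154), and -0.22 for Cit, the citron kinase gene (SE 0.20, limma adjusted p = 0.523). Ppp1r12a, for the main myosin-binding subunit, measured -0.16 (SE 0.06, limma adjusted p = 0.110) and passed without shLSD1 replicate 2 (1 gene). Rhoa, at 0.15, and Rock1, at 0.16, both of the pathway that inhibits the phosphatase, passed without shLSD1 replicate 1 (2 genes). Ppp1r14a, for the phosphatase inhibitor of smooth muscle, named after its values were seen, read 1.35 and 1.78 in shControl and 34.7 and 27.0 in shLSD1, all below the filter. With no filter it passed as higher (1 gene), and with quantile normalization Rhoa did (1 gene).

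The heavy chains that carry these light chains fell in part. Of 7 tested sarcomeric heavy chain genes 4 fell and 0 rose, with a median log2 fold change of -0.64. They were the embryonic Myh3 (-0.64), the fast Myh4 (-1.06), the slow and cardiac Myh7 (-1.55) and the perinatal Myh8 (-2.15), and these 4 passed without each array in turn. Of 3 tested non-sarcomeric ones 1 rose, Myh10, from 3008 and 2854 to 3691 and 4040 (0.40, SE 0.06, limma adjusted p = 0.00622). It no longer passed with shControl replicate 1 (0.44) or shControl replicate 2 (0.36) left out. Myh9 measured -0.15 (SE 0.04, limma adjusted p = 0.0556) and passed without shLSD1 replicate 1 and without shLSD1 replicate 2, which gave 2 calls each time. Of 4 tested myosin chaperone genes 2 fell and 1 rose. Unc45b (-0.77, SE 0.07, limma adjusted p = 0.000719) and Smyd1 (-0.76, SE 0.09, limma adjusted p = 0.00178) fell. The 4 other Smyd1 probe sets above the filter ranged from -0.83 to 0.14, of which 2 passed. The mean of the Smyd1 probe sets (-0.64) did not pass. Hsp90aa1 rose by 0.18 (limma adjusted p = 0.0195) and did not pass with shControl replicate 1 (0.19) or shControl replicate 2 (0.17) removed.

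Among a general list of regulators of muscle and smooth muscle promoters, 3 of 12 tested fell and 2 rose. Myog (-0.61), Mef2c (-0.88) and the TEAD gene Tead4 (-0.73) fell, and Myf5 (1.28) and Mrtfb (0.32), a coactivator of serum response factor, rose. Srf itself measured 0.02 (95% interval -0.26 to 0.30, limma adjusted p = 0.920). The 2 other Mrtfb probe sets above the filter gave 0.42 and 0.51, of which 0 passed. The mean of the Mrtfb probe sets (0.42) did not pass either. The 4 other Mef2c probe sets and the 1 other of Tead4 passed as lower. Without shControl replicate 1 the calls of Mef2c (-0.80), Tead4 (-0.74) and Mrtfb (0.34) were lost, and without shControl replicate 2 those of Tead4 (-0.73) and Mrtfb (0.30), which left 2 and 3 calls. The call of Mrtfb was also lost without shLSD1 replicate 2 (0.23). Whether any of these factors acts on the light chain genes here was not tested.

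**Figure D5:**
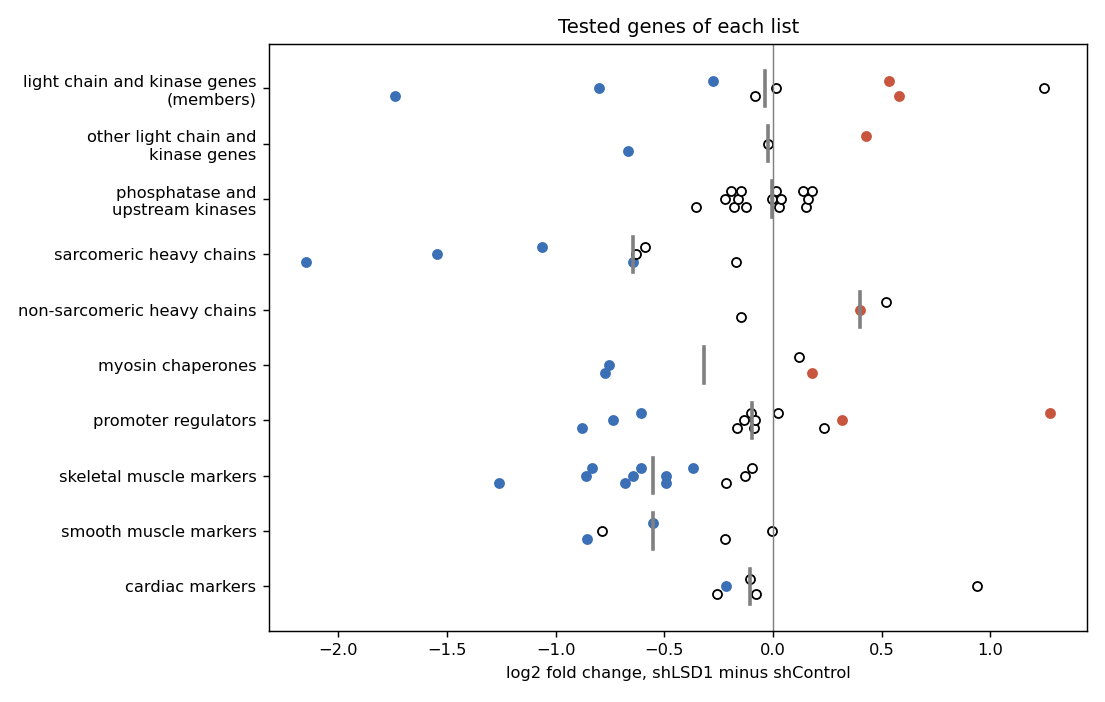
Log2 fold change (shLSD1 minus shControl) of each tested gene of the light chain and kinase set and of 9 other lists; filled blue fell, filled orange rose, open did not pass the test, and the grey bar is the list median. The light chain and kinase set spans both sides of 0, from Mylk4 at -1.74 to Mylk2, which did not pass the test, at 1.25, while 9 of the 12 skeletal muscle markers fell.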

How the data were processed

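RNA of 4 arrays, 2 per group, had been labelled from 250 ng of total RNA. The values deposited by the authors are linear-scale intensities, 1 per probe set and array. The submitters' processing notes name MAS5 with Affymetrix Expression Console and no version of either. The trimmed mean, with 2% of probe sets removed at each end, was 500.003 on every array. Of 45101 probe sets, 34945 had 1 gene symbol, 932 several and 9160 none in the annotation table, and 64 were controls. Gene IDs were looked up in a RefSeq table of GRCm38.p6, and 0 symbols needed an update.

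Signals under 1 were set to 1 before log2. A gene was represented by 1 single-symbol probe set, avoiding types prone to cross-hybridisation where another existed, then by the brightest. Genes whose mean log2 signal was above the median over all non-control probe sets, 6.03, were tested: 10793 of 18193. Groups were compared with limma 3.58.1 in R 4.3.3 (intensity trend, 7.46 total degrees of freedom, two-sided), with Benjamini-Hochberg adjustment over all tested genes and a threshold of 0.05. Probe sets were also fitted as 19958 features of their own.

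All members were described; of the other lists, genes past the test were named, or the 2 with the largest difference where fewer passed. Members, lists and settings were chosen with earlier results of these data known. On simulated data for this comparison (10793 genes), the fit called 64.2% of the genes given a log2 change of 0.5. It called 97.0% of those given 1, with 5 false calls among 10593 unchanged genes. The simulated noise was independent between arrays and depended only on signal level, with no further spread between genes, and few genes were changed. These rates are therefore those of a simpler case and may not hold for the arrays. Figures were drawn with matplotlib 3.10.9.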

Additional observations from a re-analysis of the deposited data

How the results depend on the processing

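The alternatives changed the arrays (each left out, a replicate block), the scaling (quantile, median centring, a pseudocount of 32), the filter (none, or log2 7.97), the variance model (without trend, robust) and the probe sets (averaged per gene, or each on its own). Myl4, Myl9 and Mylk4 kept direction and call in each in which they were tested; the stricter filter left out Mylk4 and Mylk2. With no intensity trend, Myl2 and Mylpf lost their calls, 1 member was higher, and 613 genes were called in all; with the mean of probe sets, 901 were. With an array left out, 2 to 4 members were lower, 1 to 2 higher and 506 to 2104 genes called. The log2 fold change of Myl6 was negative with median centring (-0.0084) and ranged from -0.063 to 0.088 with an array left out, that of Myl1 from -0.163 to 0.00070, and the difference between Myl6b and Myl6 from -1.08 to 0.201. Of the other lists, sarcomeric heavy chains had 2 calls in place of 4 with no trend, skeletal muscle markers 5 in place of 9 and regulators 2 in place of 5. The lists of other light chain genes, non-sarcomeric heavy chains and cardiac markers went to 0 there. With probe sets averaged, non-sarcomeric heavy chains and cardiac markers also had 0 and chaperones 1 in place of 3, and the phosphatase list had 2. With no filter Mylk lost its call, Cnn1 and Ppp1r14a passed as higher, and cardiac markers had 0. The causes were not tested.

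What the replicate numbers stand for is not stated in the labels. The correlation of same-numbered deviations was 0.010, but with so few arrays per group this value does not settle whether same-numbered arrays were paired. With the replicate block, 3 members were lower, 3 were higher, with Mylk2 (1.25) added, and 2000 genes were called. Of the dim genes, Mylk2 had an SE of 0.45, with shControl signals of 32.1 and 84.0. Myl3 and Myl6b lay below the filter and were not tested.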

Other observations

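Myl6 and Myl6b are next to each other among the protein-coding genes of mouse chromosome 10 in RefSeq order. Genes beside the members were also counted. Of the 10 tested genes nearest to Myl9, 5 on each side, 0 fell and 0 rose, and the same holds for Myl2 and for Mylpf. Beside Myl4, 1 of 10 fell and 0 rose, with a median log2 fold change of -0.15. Beside Mylk4, 3 of 10 rose and 0 fell, with a median of 0.13, opposite to Mylk4 itself. These windows were chosen after the values were seen, and 15.3% of all tested genes were called in either direction.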
